A study of Homo sapiens with 39 samples.

Results

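The genes described here are 9 members of the class I antigen presentation pathway, chosen by symbol from the 46706 symbols of the deposited table: HLA-B, HLA-C, HLA-E, B2M, TAP1, TAP2, TAPBP, PSMB8 and PSMB9. All 9 had a mean of at least 1 TPM, a share of all transcripts scaled by gene length, over the libraries and were among the 14404 symbols tested. They were measured by RNA sequencing in HCC1428-LTED, an established luminal breast cancer cell line kept for a long term without estrogen, grown in medium with charcoal-stripped serum, which is low in steroid hormones. The cells received DMSO, the solvent, or 1 of 6 ligands of the estrogen receptor for 24 hours, each at 30 and 300 nM. Fulvestrant is the standard-of-care selective estrogen receptor degrader, and SAR439859, GDC-0810 and AZD9496 are later degraders. The remaining ligands are hybrids that carry the side chain of SAR439859, on the GDC-0810 core in GDC-SAR and on the AZD9496 core in AZD-SAR. Each of the 13 groups held 3 libraries, 39 in all, from this 1 line. The series' design text speaks of duplicates where the labels give 3 libraries, and the labels do not say that the 3 came from separate cultures, so p-values measure only the spread between these libraries, which may be technical.

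Class I molecules show peptides from inside the cell to CD8 T cells and natural killer cells. Proteasomes cut proteins into peptides, the TAP transporter carries the peptides into the endoplasmic reticulum, and tapasin holds empty class I molecules at the transporter until a peptide binds. The molecule at the surface is a heavy chain (such as HLA-B, HLA-C or the less variable HLA-E) paired with beta-2-microglobulin, and interferon is known to raise most genes of the pathway, including the immunoproteasome subunits that replace constitutive ones.

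Of the members, 8 lie on chromosome 6 in the major histocompatibility complex and B2M lies on chromosome 15. Positions were matched by symbol in GENCODE 29 on GRCh38. HLA-E was at chr6:30489467-30494205 on the plus strand, HLA-C at chr6:31268749-31272130 on the minus strand and HLA-B at chr6:31269491-31357188 on the minus strand. TAP2 was at chr6:32821833-32838780, PSMB8 at chr6:32840717-32844703, TAP1 at chr6:32845209-32853978 and TAPBP at chr6:33299694-33314387, all on the minus strand. PSMB9 was at chr6:32844136-32859585 and B2M at chr15:44711487-44718877, both on the plus strand. The annotated bodies of HLA-B and HLA-C shared 2640 bases on the same strand. The body of PSMB9 overlapped that of TAP1 by 8770 bases and that of PSMB8 by 568 bases on the opposite strand. The libraries were stranded, but the sources used here do not state whether counting used the strand or how reads shared by near-identical class I genes were assigned. Of the 50-base stretches of the HLA-B and HLA-C transcripts, 2.54% and 6.71% also occurred in another class I gene, and 2% and 1.99% in each other, so levels of these genes carry that uncertainty.

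Promoter sequences are shown because HLA-B and HLA-C turned out to be the members that moved together. They are RefSeq promoters of GRCh38.p14, 250 bases before to 50 bases after each start, and they were found for 8 of the 9 members (not HLA-E), with 10 promoters in all. The stretches of HLA-B (chr6:31357220-31357359, minus strand) and HLA-C (chr6:31272133-31272272, minus strand) run from 180 to 41 bases before the start. Capitals mark GAANNGAAA (a short interferon regulatory factor element), TGACG (the X2 element), CCAAT and, in HLA-B, GGGANTNCC (a kappaB-like element), each on either strand.
HLA-B: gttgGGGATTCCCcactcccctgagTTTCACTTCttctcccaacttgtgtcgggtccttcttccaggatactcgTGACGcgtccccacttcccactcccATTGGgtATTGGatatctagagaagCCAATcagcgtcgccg
HLA-C: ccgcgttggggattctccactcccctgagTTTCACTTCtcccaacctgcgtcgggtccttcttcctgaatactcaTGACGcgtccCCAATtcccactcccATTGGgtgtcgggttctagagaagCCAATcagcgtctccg
These windows were 86.8% identical, with 125 identical positions, 11 mismatches and 8 gap columns in the alignment of 140 bases of each gene. HLA-B matched GGGANTNCC and HLA-C did not, while both held TGACG and GAANNGAAA. For members of the loading machinery and B2M, 30 bases are shown around matches to the longer interferon-stimulated response element, a GAAA repeat with 2 bases between its copies, on either strand and in capitals. The stretches are chr15:44711363-44711392 on the plus strand for B2M, and chr6:32853819-32853848, chr6:32838778-32838807 and chr6:33314079-33314108 on the minus strand for TAP1, TAP2 and TAPBP.
B2M: gagactctaaGAAAAGGAAACTGAAAacgg
TAP1: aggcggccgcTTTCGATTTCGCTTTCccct
TAP2: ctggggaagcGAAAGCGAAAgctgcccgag
TAPBP: ccctttggagGAAAGTGAAAGTGAAAggag
The response element occurred in 5 of the 10 member promoters (B2M, TAP1, TAP2, TAPBP and PSMB8) and in 3.57% of all 35116 promoters. GAANNGAAA, which can overlap it, occurred in 4 of 10 against 7.66%, GGGANTNCC in 3 of 10 against 4.35%, TGACG in 6 of 10 against 24.6%, TTCNNNGAA (a gamma-activated site) in 2 of 10 against 7.66% and CCAAT in 5 of 10 against 34.6%. The full palindrome that estrogen receptors bind, GGTCA and TGACC with 3 bases between, occurred in 0 of 10 and in 0.057% of all promoters. The motifs were written with these promoters in view, and a match describes letters, not a binding site.

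Each library's TPM values sum to the same total, so sequencing depth is unknown. Between 15818 and 26756 symbols were above 0 in a library, and the 10 most abundant symbols took 26.7% to 39.7% of all TPM. MALAT1, an abundant nuclear RNA, was listed at 0 in SAR439859 30 nM replicate 1 and AZD-SAR 300 nM replicate 2. It averaged 83180 TPM over all libraries, and where it is listed at 0 its share of the total falls to other symbols. In these libraries the 10 most abundant symbols took 26.7% and 30.7% of TPM, in that order. SAR439859 30 nM replicate 3 had the fewest symbols above 0. These 3 libraries stand apart, and counts without them are given beside the results. DMSO replicate 2 carried the same index sequence as AZD9496 300 nM replicate 3, and DMSO replicate 3 the same as AZD-SAR 300 nM replicate 3. In the library titles, the numbers of the DMSO libraries lie apart from those of all libraries with ligand. What this numbering stands for is not stated, and anything that goes with it cannot be told apart from ligand against DMSO. The labels name no pool or lane, and the part of pools in the comparisons with DMSO was not tested.

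HLA-B and HLA-C each rose in 11 of 12 comparisons with DMSO, TAP2 fell in 6 and TAPBP rose in 6, while HLA-E, B2M, TAP1, PSMB8 and PSMB9 passed the test in none of the 12. The test was limma on log2(TPM + 1) with Benjamini-Hochberg adjustment over all tested symbols, and a call is an adjusted p below 0.05. Over 12 comparisons of 9 genes there were 34 calls of 108, 28 higher and 6 lower. After median-of-ratios scaling they were 26 higher and 10 lower, and without the 3 libraries that stand apart 31 higher and 6 lower. All 12 comparisons share the same 3 DMSO libraries, and their results are therefore not independent.

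With fulvestrant at 30 nM, 3 of 9 members were called, 3 higher and 0 lower, where 19.1% of all tested symbols were called, 11.3% higher and 7.82% lower. With fulvestrant at 300 nM, 2 were higher and 1 lower, where 19.2% of symbols were called, 11.1% higher and 8.12% lower. With SAR439859 at 30 nM, 2 were higher and 0 lower against 25.5%, of which 15.3% higher and 10.2% lower. The members' share called higher was above that of all symbols in each of the 12 comparisons. Their share called in either direction was below that of all symbols in 1. A few genes make up each share, the members were chosen with earlier results known, and the comparisons share the DMSO libraries. These counts therefore say little about the 9 genes as a set. With SAR439859 at 300 nM, 2 were higher and 1 lower against 24.1% (11.2% and 12.8%). With GDC-0810, 2 were higher and 1 lower at 30 nM against 16.8% (7.95% and 8.83%), and 2 higher and 0 lower at 300 nM against 16% (6.99% and 9.04%). AZD9496 had the fewest called symbols of all. With it, 3 members were higher and 0 lower at 30 nM against 11.3% (9.21% and 2.05%), and 1 higher and 0 lower at 300 nM against 5.93% (3.71% and 2.21%). With GDC-SAR, 3 were higher and 0 lower at 30 nM against 22.5% (11.4% and 11.1%), and 2 higher and 1 lower at 300 nM against 20.3% (9.76% and 10.5%). With AZD-SAR, 3 were higher and 1 lower at 30 nM against 20.6% (11.9% and 8.66%), and also at 300 nM against 25.6% (12.7% and 12.8%). The median log2 difference of the 9 members lay between 0.0482 and 0.316, beside medians of all tested symbols between 0 and 0.185.

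HLA-B and HLA-C encode classical heavy chains. HLA-B stood at 76.9, 59.5 and 64.2 TPM in the 3 DMSO libraries, a mean of 66.9 ± 8.98 (SD, n = 3). With fulvestrant it was 175, 135 and 138 TPM at 30 nM and 160, 179 and 107 TPM at 300 nM. With SAR439859 it was 230, 125 and 99.3 TPM at 30 nM and 187, 155 and 106 TPM at 300 nM. Every library with these ligands lay above the highest DMSO library, and the spread among the 3 libraries of a treated group was wide. With GDC-0810 the values were 218, 182 and 160 TPM at 30 nM and 239, 150 and 141 TPM at 300 nM. With AZD9496 they were 206, 84.9 and 147 TPM at 30 nM and 163, 88.9 and 91.0 TPM at 300 nM. AZD9496 thus gave the lowest libraries of all with ligand, still above DMSO. With GDC-SAR the values were 178, 154 and 163 TPM at 30 nM and 183, 195 and 121 TPM at 300 nM. With AZD-SAR they were 207, 186 and 130 TPM at 30 nM and 232, 215 and 136 TPM at 300 nM. Over the 36 libraries with ligand, HLA-B ranged from 84.9 to 239 TPM with a median of 160, and no library overlapped DMSO.

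**Figure D1:**
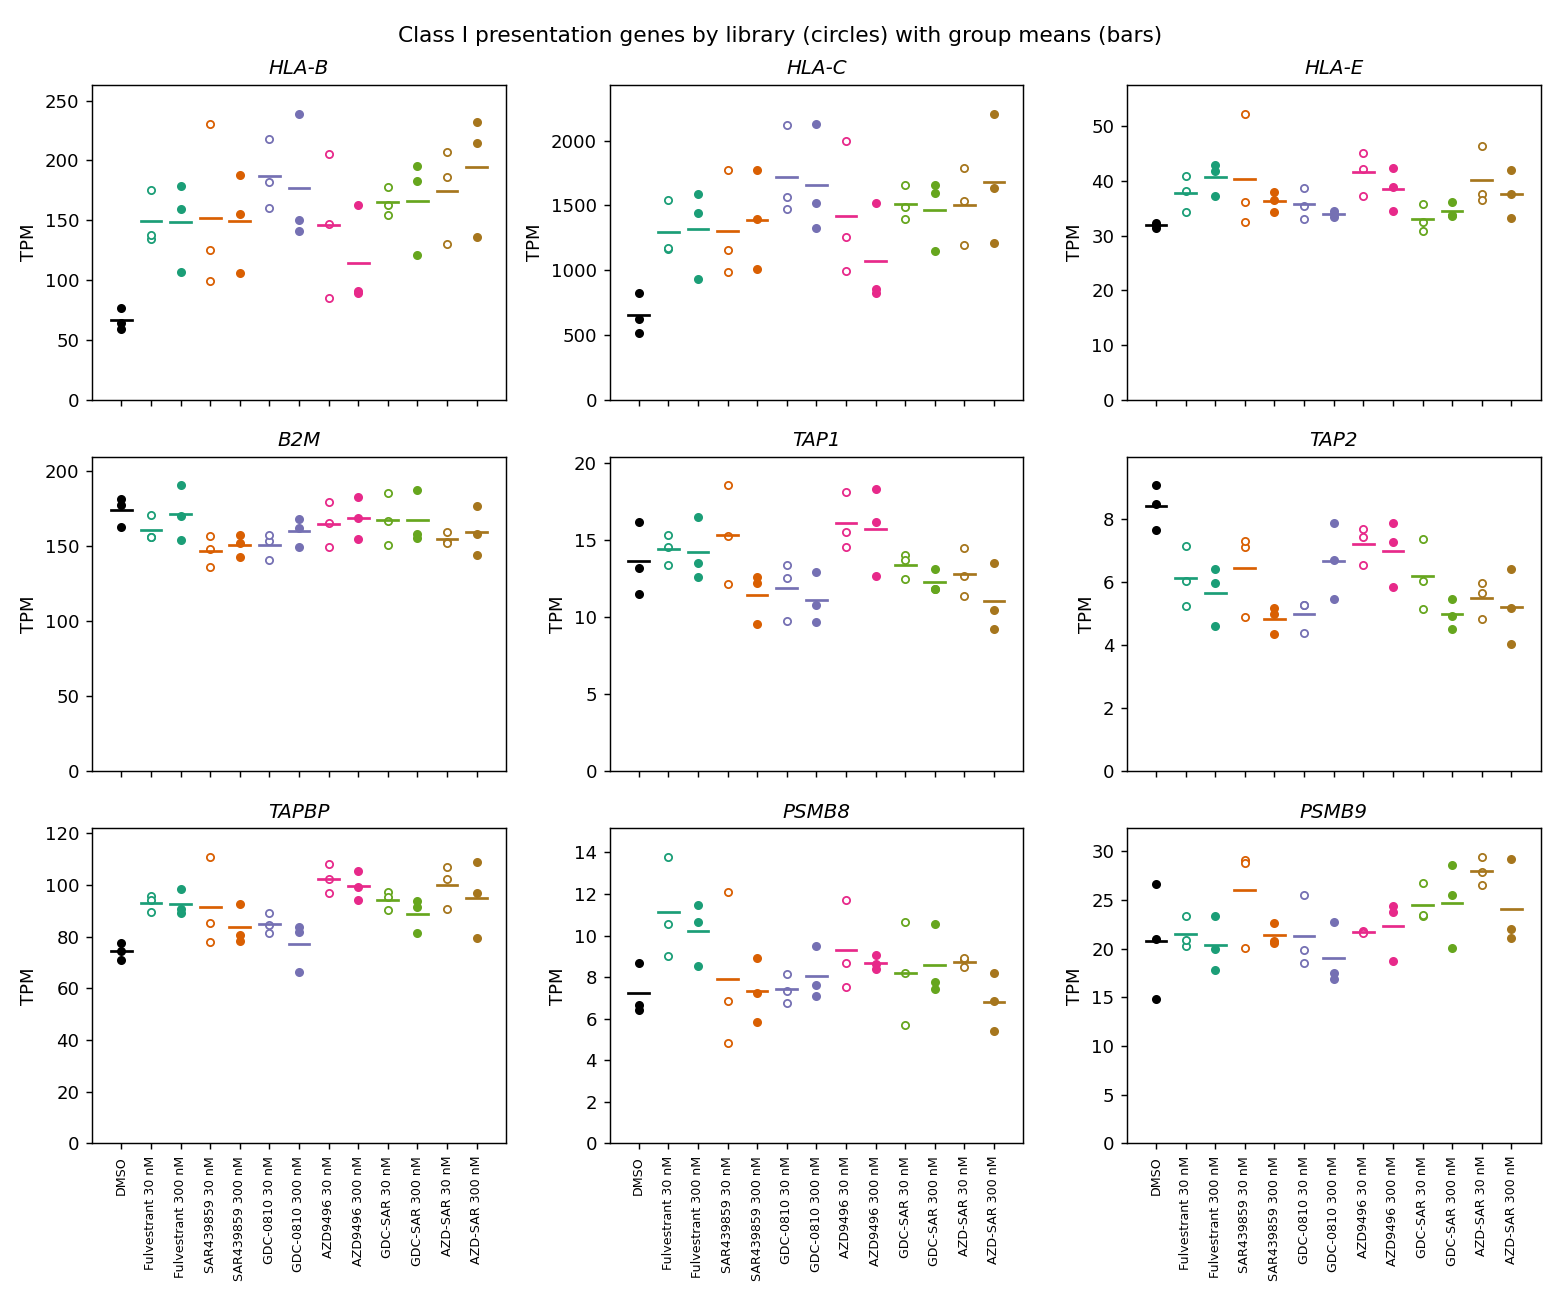
TPM of each of the 9 genes in every library (vertical axis, 1 panel a gene) by group (horizontal axis), with open circles for 30 nM and filled circles for 300 nM. HLA-B and HLA-C lie above the 3 DMSO libraries in all 36 libraries with ligand, and TAP2 lies below them in 33.

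The group means of HLA-B were 1.71 to 2.9 times that of DMSO, lowest with AZD9496 at 300 nM (114 ± 42 TPM) and highest with AZD-SAR at 300 nM (194 ± 51.4 TPM). On the log2(TPM + 1) scale the difference from DMSO had a standard error of 0.313 in each comparison. At 30 nM it was 1.14 with fulvestrant (adjusted p = 0.0093), 1.08 with SAR439859 (0.011), 1.47 with GDC-0810 (0.0017), 1.03 with AZD9496 (0.031), 1.30 with GDC-SAR (0.0032) and 1.35 with AZD-SAR (0.0023), limma with Benjamini-Hochberg adjustment. At 300 nM it was 1.11 with fulvestrant (0.011), 1.12 with SAR439859 (0.0088), 1.36 with GDC-0810 (0.0035), 1.28 with GDC-SAR (0.0038) and 1.49 with AZD-SAR (0.00068). The difference with AZD9496 at 300 nM was 0.71 and did not pass the test (adjusted p = 0.201). Neighbouring ligand groups in the order of the means overlapped in their libraries, so that order is not resolved beyond their spread.

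HLA-C was the most abundant member, at 827, 514 and 623 TPM with DMSO (655 ± 159). With fulvestrant it was 1545, 1161 and 1170 TPM at 30 nM and 1440, 1588 and 933 TPM at 300 nM. With SAR439859 it was 1770, 1159 and 986 TPM at 30 nM and 1770, 1396 and 1005 TPM at 300 nM. Both ligands gave levels above all DMSO libraries. With GDC-0810 the values were 2121, 1562 and 1470 TPM at 30 nM and 2132, 1520 and 1324 TPM at 300 nM. With AZD9496 they were 1998, 997 and 1260 TPM at 30 nM and 1522, 858 and 827 TPM at 300 nM. The lowest AZD9496 library, at 827.1 TPM, was only just above the highest DMSO library, at 826.5. With GDC-SAR the values were 1658, 1394 and 1491 TPM at 30 nM and 1659, 1592 and 1146 TPM at 300 nM. With AZD-SAR they were 1792, 1531 and 1196 TPM at 30 nM and 2209, 1632 and 1212 TPM at 300 nM. The median of the 36 libraries with ligand was 1480 TPM.

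The group means of HLA-C were 1.63 to 2.62 times that of DMSO, and the log2 differences had a standard error of 0.289. At 30 nM they were 0.99 with fulvestrant (limma adjusted p = 0.015), 0.98 with SAR439859 (0.013), 1.40 with GDC-0810 (0.0012), 1.08 with AZD9496 (0.014), 1.23 with GDC-SAR (0.0025) and 1.21 with AZD-SAR (0.003). At 300 nM they were 1.0 with fulvestrant (0.014), 1.08 with SAR439859 (0.0066), 1.34 with GDC-0810 (0.002), 1.17 with GDC-SAR (0.0041) and 1.35 with AZD-SAR (0.00088). The exception was again AZD9496 at 300 nM, with a difference of 0.67 that missed the threshold (adjusted p = 0.188). Of the 11 calls of each gene, 6 were kept under every alternative, those with GDC-0810, GDC-SAR and AZD-SAR at both doses. The other 5 of each, with fulvestrant and SAR439859 at both doses and AZD9496 at 30 nM, were each lost when some single library was left out. The differences stayed positive where a call was lost this way, at 0.735 to 1.03 for HLA-B and 0.734 to 0.921 for HLA-C. Without replicate 1 of the group tested, the adjusted p of HLA-B was 0.0547 with fulvestrant 30 nM, 0.0998 with SAR439859 30 nM, 0.199 with AZD9496 30 nM and 0.0637 with SAR439859 300 nM. Those of HLA-C were 0.0833, 0.0873, 0.124 and 0.0571 in the same order, and 0.0579 with fulvestrant 300 nM. Without replicate 2 of fulvestrant 300 nM they were 0.0675 for HLA-B and 0.0819 for HLA-C. Without replicate 3 of AZD9496 30 nM that of HLA-B was 0.0991. Without DMSO replicate 2, HLA-B lost its call with AZD9496 30 nM (0.115) and fulvestrant 300 nM (0.0513), and HLA-C lost it with fulvestrant 30 nM (0.0891), SAR439859 30 nM (0.0776), AZD9496 30 nM (0.0924) and fulvestrant 300 nM (0.0857). Without DMSO replicate 3, HLA-B lost it with AZD9496 30 nM (0.087). Without the 3 libraries that stand apart, 2 of which are SAR439859 30 nM libraries, the adjusted p with SAR439859 30 nM was 0.1801 for HLA-B and 0.1938 for HLA-C. When only the libraries compared entered the fit, that group lost both calls (0.0737 and 0.0652). The calls with AZD9496 30 nM were lost after median-of-ratios scaling (0.0957 for HLA-B and 0.0603 for HLA-C), and that of HLA-B also with no expression filter (0.0751) and with only the libraries compared (0.0653).

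Within groups, the order in which the libraries are listed went with the level of these genes. The first listed library was the highest of its group in 11 of 13 groups for HLA-B and in 12 of 13 for HLA-C, DMSO included, and the third was the lowest in 8 and in 9. For TAP2 the first was the lowest in 10 of 13 and the third the highest in 9, while no other member had the same position highest in more than 7. The labels give this order no meaning, so it was not used to pair libraries, and its part in the comparisons was not tested.

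HLA-B and HLA-C moved together across libraries. The library highest in HLA-B was also highest in HLA-C in 12 of 13 groups, and the lowest was the same in 12 of 13. Pearson's r between them on the log2 scale was 0.989 over the 13 group means. Over deviations from the group means in the 39 libraries it was 0.957. Both values describe genes that share libraries, listing order, composition and some sequence. In TPM, which is scaled by length, HLA-C was 7.6 to 11.7 times HLA-B, with a median of 9.09, a ratio that carries the uncertainty of how reads from their overlapping and near-identical stretches were counted. HLA-C also stood at 3.16 to 13.8 times the TPM of B2M, its partner chain, with a median of 8.93.

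**Figure D2:**
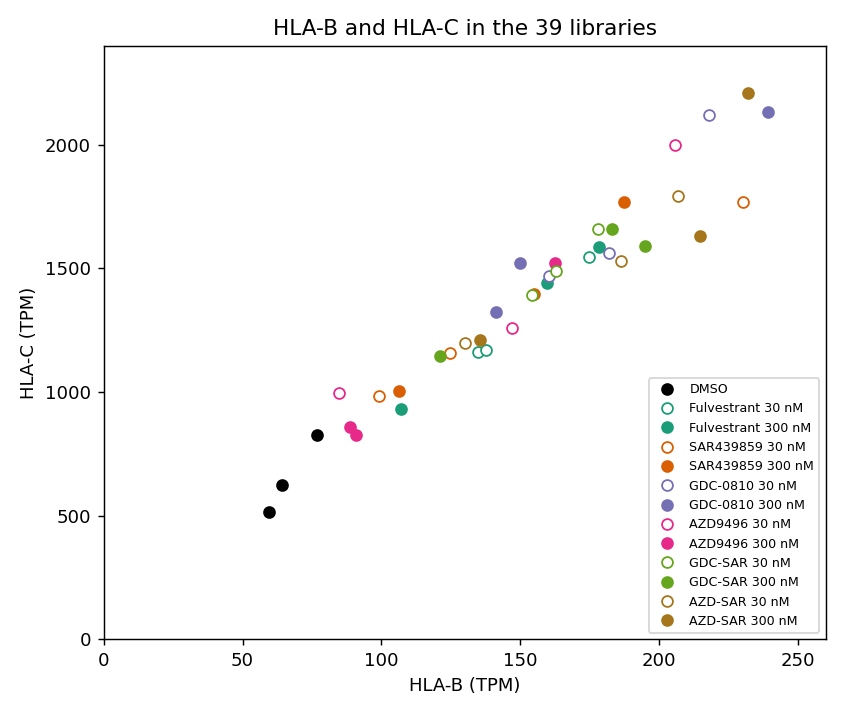
HLA-C TPM (vertical axis) against HLA-B TPM (horizontal axis) in each of the 39 libraries, coloured by ligand, with open circles for 30 nM and filled circles for 300 nM. The points lie along a band with a ratio of 7.6 to 11.7, and the DMSO libraries sit at its low end.

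HLA-E encodes a less variable heavy chain that shows leader peptides of other class I chains to natural killer cells. It stood at 31.8, 31.4 and 32.3 TPM with DMSO, and at 30.9 to 52.3 TPM with ligand (median 36.4). In 35 of 36 libraries it was above every DMSO library, yet its differences were small, 0.05 to 0.37 on the log2 scale with a standard error of 0.128, and no comparison passed (lowest adjusted p = 0.0584). The highest value, 52.3 TPM, came from SAR439859 30 nM replicate 1, a library that stands apart. The largest difference was with AZD9496 30 nM, where the median of all tested symbols was itself 0.185 higher. Over all alternatives that HLA-E difference ran from 0.158 to 0.443 (limma adjusted p from 0.0137 to 0.355). Calls appeared without SAR439859 30 nM replicate 3 for that group (adjusted p = 0.0158) and without AZD9496 30 nM replicate 2 for that group (0.044). Without SAR439859 30 nM replicate 1, HLA-E passed as higher with AZD9496 30 nM (0.01825), AZD-SAR 30 nM (0.02849) and fulvestrant 300 nM (0.01954). Without SAR439859 30 nM replicate 3 it also passed with AZD9496 30 nM (0.03517) and fulvestrant 300 nM (0.03688). Without all 3 libraries that stand apart the values were 0.01371, 0.02281 and 0.01525 for AZD9496 30 nM, AZD-SAR 30 nM and fulvestrant 300 nM, and with the 10 most abundant symbols removed HLA-E passed with fulvestrant 300 nM (0.0199).

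B2M encodes beta-2-microglobulin, the light chain of every class I molecule. It was 178, 163 and 181 TPM with DMSO and 136 to 191 TPM with ligand (median 157). In 24 of the 36 libraries with ligand it was below all DMSO libraries and in 4 above them. Differences ran from -0.24 to -0.02 with a standard error of 0.101 and no comparison passed (lowest adjusted p = 0.0794). B2M was thus not called in either direction where HLA-B and HLA-C were higher, except that after median-of-ratios scaling it was lower with SAR439859 30 nM (adjusted p = 0.0322).

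TAP1 and TAP2 encode the subunits of the peptide transporter. TAP2 was 7.64, 8.49 and 9.07 TPM with DMSO (8.40 ± 0.72), and 4.05 to 7.86 TPM with ligand (median 5.75), below all DMSO libraries in 33 of 36. At 30 nM it was 4.38, 5.26 and 5.28 TPM with GDC-0810 and 4.82, 5.66 and 5.97 TPM with AZD-SAR. At 300 nM it was 5.96, 4.61 and 6.41 TPM with fulvestrant, 5.18, 4.34 and 5.00 TPM with SAR439859, 4.53, 4.93 and 5.47 TPM with GDC-SAR and 4.05, 5.18 and 6.40 TPM with AZD-SAR. None of the libraries of these 6 groups overlapped DMSO, and these are the groups in which TAP2 fell. The log2 differences, with a standard error of 0.163, were -0.65 with GDC-0810 30 nM (limma adjusted p = 0.0062), -0.54 with AZD-SAR 30 nM (0.019), -0.50 with fulvestrant 300 nM (0.028), -0.69 with SAR439859 300 nM (0.0024), -0.65 with GDC-SAR 300 nM (0.0046) and -0.61 with AZD-SAR 300 nM (0.0062). In the other 6 comparisons they lay between -0.40 and -0.19. The calls with GDC-0810 30 nM, SAR439859 300 nM and GDC-SAR 300 nM were kept under every alternative. Without replicate 1 of the group, those with AZD-SAR were lost at 30 nM (0.0894) and 300 nM (0.0585), and without replicate 2 that with fulvestrant 300 nM was lost (0.165). Without DMSO replicate 2 or 3 the adjusted p was 0.057 and 0.0777 with AZD-SAR 30 nM, and 0.0796 and 0.104 with fulvestrant 300 nM. The call with fulvestrant 300 nM was also lost with no expression filter (0.0614), and when only the libraries compared entered the fit it was lost with fulvestrant 300 nM (0.059) and AZD-SAR 300 nM (0.0657). Without GDC-SAR 30 nM replicate 2, TAP2 passed in that group (0.0469). After median-of-ratios scaling TAP2 fell with fulvestrant, SAR439859 and GDC-SAR at 30 nM too (adjusted p = 0.0175, 0.0228 and 0.0325).

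TAP1 stood at 16.1, 11.5 and 13.2 TPM with DMSO and 9.2 to 18.5 TPM with ligand (median 13). Of the libraries with ligand, 4 were above all DMSO libraries and 7 below. Its differences from DMSO ran from -0.28 to 0.23 with a standard error of 0.164, and none passed (lowest adjusted p = 0.218). TAP1 values of the DMSO and ligand groups thus overlapped where those of TAP2 mostly did not. The difference between the 2 genes' responses was not tested.

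TAPBP encodes tapasin. It was 77.5, 71.0 and 74.6 TPM with DMSO (74.3 ± 3.27), and 66.3 to 111 TPM with ligand (median 92.1), above all DMSO libraries in 35 of 36. At 30 nM it was 95.6, 94.2 and 89.7 TPM with fulvestrant, 102, 96.9 and 108 TPM with AZD9496, 90.3, 97.3 and 95.4 TPM with GDC-SAR and 90.7, 107 and 102 TPM with AZD-SAR. At 300 nM it was 99.2, 105 and 94.1 TPM with AZD9496 and 79.6, 97.1 and 109 TPM with AZD-SAR. These are the 6 groups in which TAPBP passed, and each lay above DMSO in all 3 libraries. The log2 differences, with a standard error of 0.115, were 0.32 (limma adjusted p = 0.048), 0.46 (0.009), 0.34 (0.032) and 0.42 (0.0093) at 30 nM in that order, and 0.42 (0.026) and 0.34 (0.028) at 300 nM. The median of all tested symbols itself was 0.109 higher with fulvestrant 30 nM, 0.185 higher with AZD9496 30 nM and 0.102 higher with AZD9496 300 nM, and under median-of-ratios scaling TAPBP missed the threshold with fulvestrant 30 nM (0.0529) and AZD9496 30 nM (0.0609). None of the 6 calls was kept under every alternative. The call with fulvestrant 30 nM was lost without any 1 of the 6 libraries compared (adjusted p from 0.0668 to 0.153), and leaving out libraries of other groups moved it across the threshold too (up to 0.05439). With AZD9496 30 nM it was lost without replicate 3 (0.0524) or DMSO replicate 2 (0.051), and with AZD-SAR 30 nM without replicate 2 (0.0535). With GDC-SAR 30 nM it was lost without replicate 2 (0.0917), replicate 3 (0.0817), DMSO replicate 2 (0.111) or DMSO replicate 3 (0.073). With AZD9496 300 nM it was lost without replicate 1 (0.0717), replicate 2 (0.114), DMSO replicate 2 (0.116) or DMSO replicate 3 (0.0724). With AZD-SAR 300 nM it was lost without replicate 2 (0.0869), replicate 3 (0.147), DMSO replicate 2 (0.0997) or DMSO replicate 3 (0.0637). With no expression filter the adjusted p was 0.0976 with fulvestrant 30 nM, 0.0607 with GDC-SAR 30 nM and 0.0525 with AZD-SAR 300 nM. With the 10 most abundant symbols removed it was 0.057 with fulvestrant 30 nM, 0.0895 with AZD9496 30 nM, 0.0617 with AZD9496 300 nM and 0.0652 with AZD-SAR 300 nM. With only the libraries compared it was 0.0566 with AZD9496 300 nM and 0.16 with AZD-SAR 300 nM, and with no intensity trend 0.0615 with fulvestrant 30 nM. In the other direction, TAPBP passed with SAR439859 30 nM without replicate 3 of that group (0.0214), with fulvestrant 300 nM without the 3 libraries that stand apart (0.02767) and, after median-of-ratios scaling, with fulvestrant 300 nM (0.041) and GDC-SAR 300 nM (0.0334). For fulvestrant 300 nM it also passed without SAR439859 30 nM replicate 1 (0.02672), SAR439859 30 nM replicate 3 (0.03731), GDC-0810 300 nM replicate 1 (0.04204), AZD-SAR 300 nM replicate 1 (0.03705) or AZD-SAR 300 nM replicate 3 (0.04182), and with the 10 most abundant symbols removed (0.0434).

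**Figure D3:**
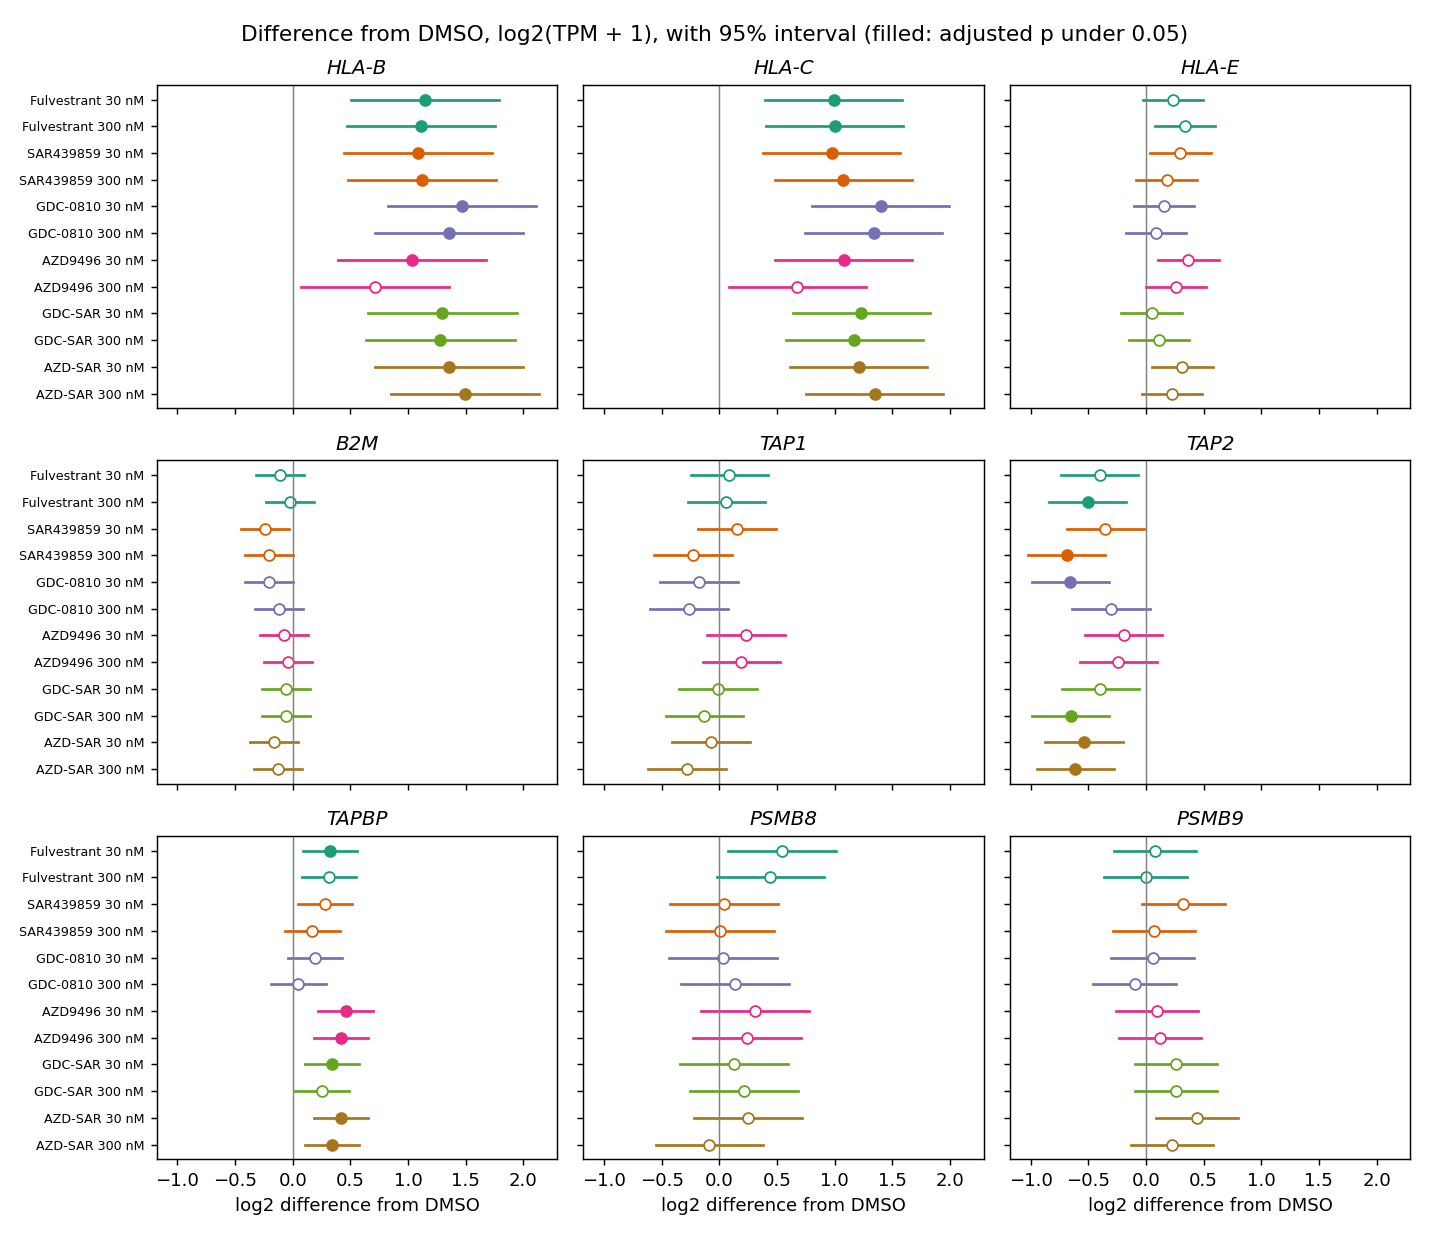
Log2 difference from DMSO with its 95% interval (horizontal axis) in the 12 comparisons (vertical axis), 1 panel for each of the 9 genes, filled where the adjusted p was below 0.05. HLA-B and HLA-C are filled everywhere except AZD9496 300 nM, TAP2 is filled on the lower side in 6 comparisons and TAPBP on the higher side in 6.

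PSMB8 and PSMB9 encode catalytic subunits of the immunoproteasome. PSMB8 was 6.41, 8.70 and 6.66 TPM with DMSO and 4.80 to 13.8 TPM with ligand (median 8.44). PSMB9 was 14.8, 21.0 and 26.6 TPM with DMSO and 16.9 to 29.4 TPM with ligand (median 22.3). The DMSO libraries spanned much of the range seen with ligand, most of all for PSMB9. PSMB8 differed from DMSO by -0.09 to 0.55 (standard error 0.228, lowest adjusted p = 0.0936) and PSMB9 by -0.10 to 0.44 (standard error 0.174, lowest adjusted p = 0.069). PSMB8 passed in fulvestrant 30 nM without the 3 libraries that stand apart (adjusted p = 0.03761). PSMB9 passed in SAR439859 30 nM without its replicate 2 (adjusted p = 0.0458), and, without DMSO replicate 3, in SAR439859 30 nM (0.0454) and AZD-SAR 30 nM (0.0174).

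The related ligands were compared at matched doses, in 6 pairs at each of 30 and 300 nM, with none of the DMSO libraries in the contrasts. No member passed in any of these 12 comparisons (0 of 108, limma with Benjamini-Hochberg adjustment), and 15 of 108 had an unadjusted p below 0.05. Of all tested symbols, 1.28% and 1.25% were called at 30 and 300 nM between GDC-SAR and GDC-0810, and 1.68% and 8.57% between AZD-SAR and AZD9496, the pairs that share a scaffold. They were 0.257% and 0% between GDC-SAR and SAR439859 and 0.0555% and 0% between AZD-SAR and SAR439859, which share the side chain. They were 0% and 0% between AZD-SAR and GDC-SAR, and 0.0208% and 1.12% between AZD9496 and GDC-0810, which differ in scaffold.

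The largest difference among the members was that of HLA-B after the swap of the side chain on the AZD9496 scaffold at 300 nM. HLA-B was 232, 215 and 136 TPM with AZD-SAR and 163, 88.9 and 91.0 TPM with AZD9496, a difference of 0.78 (95% interval 0.14 to 1.42, adjusted p = 0.11). HLA-C differed by 0.67 (0.08 to 1.27, adjusted p = 0.138). The libraries of the 2 ligands overlapped for both genes. TAP1 was 9.2, 10.5 and 13.5 TPM with AZD-SAR and 18.3, 16.1 and 12.7 TPM with AZD9496, a difference of -0.47 (-0.81 to -0.13, adjusted p = 0.0666), and TAP2 differed by -0.37 (-0.71 to -0.04, adjusted p = 0.146). These results depended on single libraries. Without AZD-SAR 300 nM replicate 3, HLA-B, HLA-C, TAP1 and TAP2 all passed (adjusted p = 0.0358, 0.0478, 0.0166 and 0.0436). HLA-B also passed without AZD9496 300 nM replicate 1 (0.047), and TAP1 without AZD9496 300 nM replicate 3 (0.0453).

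On the GDC-0810 scaffold the same swap at 300 nM gave -0.08 for HLA-B (95% interval -0.72 to 0.57) and -0.17 for HLA-C (-0.76 to 0.43), intervals that leave room for a change in either direction. TAP2 differed by -0.35 (-0.69 to -0.02, adjusted p = 0.474). Between the scaffolds with their own side chains at 300 nM, AZD9496 minus GDC-0810, HLA-B differed by -0.64 (adjusted p = 0.236), HLA-C by -0.66 (0.184), TAP1 by 0.46 (0.113) and TAPBP by 0.37 (95% interval 0.13 to 0.60, 0.0744). TAPBP passed there without GDC-0810 300 nM replicate 3 (0.0414), SAR439859 30 nM replicate 1 (0.04753) or AZD-SAR 300 nM replicate 1 (0.0493), and without the 3 libraries that stand apart (0.0456). At 30 nM the same pair differed by 0.46 in TAP2 (95% interval 0.12 to 0.80, adjusted p = 0.132), 0.41 in TAP1 (0.171) and 0.27 in TAPBP (0.199). The pairs that share the SAR439859 side chain, GDC-SAR or AZD-SAR against SAR439859 and AZD-SAR against GDC-SAR, gave adjusted p-values of 0.33 or more for every member.

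**Figure D4:**
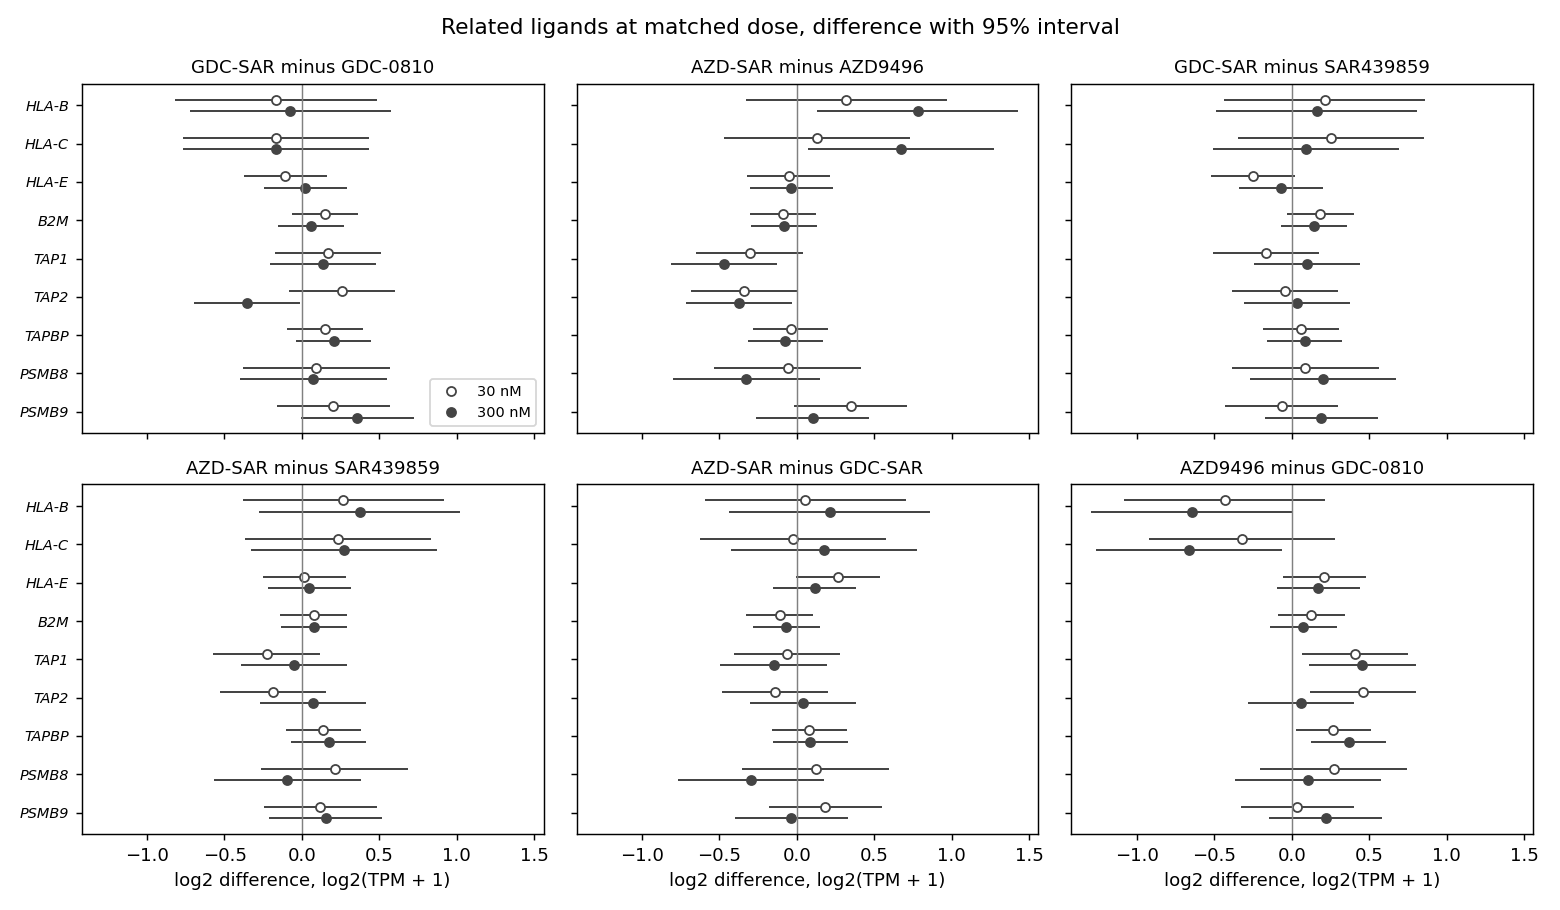
Log2 difference with its 95% interval (horizontal axis) for each of the 9 genes (vertical axis), 1 panel for each of the 6 pairs of related ligands, with open circles for 30 nM and filled circles for 300 nM. Most intervals include 0, and the point farthest from 0 is HLA-B between AZD-SAR and AZD9496 at 300 nM, at 0.78.

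Whether the side chain swap acted differently on the scaffolds was tested as an interaction at each dose, and no member passed (0 of 18, with 3 at an unadjusted p below 0.05). The lowest adjusted p was 0.237, for TAP1 at 300 nM, with a difference of differences of -0.61 (95% interval -1.08 to -0.13). Of all tested symbols 0% and 0.00694% were called at 30 and 300 nM. The F test of equality of the 6 ligands called no member at either dose (0 of 18, with 3 at an unadjusted p below 0.05), where 5.11% and 4.91% of tested symbols were called, and its lowest adjusted p was 0.191, for TAP1 at 300 nM. Between 300 and 30 nM of the same ligand no member passed (0 of 54, with 3 at an unadjusted p below 0.05), and 0% of all tested symbols were called for any ligand. Those 3 were TAP1 and TAP2 with SAR439859, by -0.38 and -0.34, and TAP2 with GDC-0810, by 0.35.

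Beyond HLA-B and HLA-C, members varied with each other less closely. Over the 13 group means r was -0.766 between HLA-B and TAP2 and -0.719 between HLA-C and TAP2, and within groups over the 39 libraries it was -0.549 and -0.637. HLA-E and TAPBP had r of 0.742 over group means and 0.671 within groups. All members are shares of 1 total in each library. The within-group values also hold the listing order described above, in which HLA-B and HLA-C ran opposite to TAP2. All these values are descriptions. HLA-C and B2M had the same highest library in only 4 of 13 groups, and HLA-C and HLA-E in 3. TAP1 and PSMB9, whose annotated bodies overlap on opposite strands, had it in 4.

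Of 18 other genes of the class I pathway, 17 were tested, and 2 to 7 were higher in each comparison with DMSO and at most 1 lower. Calls in the higher direction covered 11.8% to 41.2% of them, beside 3.71% to 15.3% of all tested symbols. The list's share was above that of all symbols in each of the 12 comparisons. The list was chosen with earlier results of these data known, and the 12 comparisons share the DMSO libraries. The list's share is therefore a description and no test of the pathway. For calls in either direction its share was below that of all symbols with AZD-SAR at 300 nM (23.5% against 25.6%). CALR, the chaperone calreticulin of the loading complex, was called higher in 12 of 12 comparisons, from 303 ± 22.6 TPM with DMSO to group means of 583 to 746 TPM. ERAP1, the aminopeptidase that trims peptides in the endoplasmic reticulum, was higher in 11 of 12, and was 20.9 ± 8.78 TPM with DMSO. LNPEP, an aminopeptidase of endosomes, was higher in 12 of 12, and ERAP2, a second trimming enzyme, in 3. PSMB10, the third immunoproteasome subunit, was higher in 10 of 12, from 15.8 ± 6.12 TPM with DMSO to 19.8 to 38.4 TPM. That count was 2 without DMSO replicate 3, 5 without DMSO replicate 2 and 3 when only the libraries compared entered the fit. ERAP2 was called in 0 comparisons with no expression filter or without DMSO replicate 2 or 3, in 1 without SAR439859 300 nM replicate 1 or 2 or GDC-SAR 30 nM replicate 2, and in 5 without SAR439859 30 nM replicate 3. The constitutive subunits that the immunoproteasome replaces were PSMB5, higher in 2 of 12 (in 0 without any 1 DMSO library and in 4 without SAR439859 30 nM replicate 1 or GDC-0810 300 nM replicate 3), and PSMB6 and PSMB7, called in none and in at most 1 under any alternative.

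Of the 28 listed regulators of class I transcription and interferon signalling, all were tested, and 1 to 9 were higher and 0 to 4 lower in each comparison. The share called in either direction ran from 3.57% to 42.9%, beside 5.93% to 25.6% of all tested symbols. It was below that of all symbols in 3 of 12 comparisons, with GDC-0810 at 30 nM (14.3% against 16.8%) and 300 nM (10.7% against 16%) and with AZD9496 at 300 nM (3.57% against 5.93%). NLRC5, the class I transactivator, was 1.61 ± 0.582 TPM with DMSO and 1.72 to 5.78 TPM with ligand, and passed in 0 of 12 comparisons (in 1 without SAR439859 30 nM replicate 3). Its highest library was SAR439859 30 nM replicate 1, at 14.3 TPM. IRF1 was 6.20 ± 1.62 TPM with DMSO and higher in 1 of 12, a call that was lost with a pseudocount of 0.1 and without any 1 of the DMSO libraries, and the count was 0 to 4 over all alternatives. IRF9, a factor of interferon signalling, was higher in 10 of 12 (25.7 ± 6.97 TPM with DMSO), and IRF2 in 9. SOCS3, an inhibitor of cytokine signalling, was lower in 11 of 12, from 22.9 ± 1.97 TPM with DMSO to 4.39 to 13.8 TPM. USF1, a factor that binds E-boxes, was lower in 6.

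Of 13 class I-like genes 6 were tested. The share called ran from 0% to 50%, beside 5.93% to 25.6% of all tested symbols, and was below that of all symbols in 6 of 12 comparisons. MICB and MICA, ligands of the NKG2D receptor of natural killer cells, were lower in 10 and in 4 of 12 comparisons, from 16.6 ± 1.65 and 16.4 ± 2.58 TPM with DMSO. The MICA count was 2 without DMSO replicate 1 and 7 after median-of-ratios scaling. MR1, HFE and FCGRT were each higher in 1 of 12. Over the alternatives these counts were 0 to 2, 0 to 1 and 1 to 3, and that of MR1 was 0 without any 1 DMSO library and that of HFE 0 without SAR439859 30 nM replicate 3. Of 13 class II genes 4 were tested, and HLA-DQB1 was higher in 6 of 12 (2.27 ± 0.475 TPM with DMSO), in 1 without DMSO replicate 1 or DMSO replicate 2, in 3 without DMSO replicate 3 and in 1 with no expression filter. The share of the class II genes called ran from 0% to 25% and was below that of all symbols in 6 of 12 comparisons. Of 8 other immune surface ligands 5 were tested. Their share called ran from 0% to 60% and was below that of all symbols in 3 of 12. VTCN1, an inhibitory B7 family member, was higher in 11 of 12, CD276, another B7 member, was lower in 8 (in 2 without DMSO replicate 3, 4 without DMSO replicate 1 and 5 without fulvestrant 30 nM replicate 1 or GDC-SAR 30 nM replicate 1 or 3), and CD47 was higher in 2 (in 0 without DMSO replicate 2 or 3).

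The genes whose pattern over the 13 group means was most like a member were picked by Pearson's r among all other tested symbols, as a description. For HLA-B they were RPLP2 (0.981), TMBIM6 (0.978) and SUV420H1 (0.976), and for HLA-C RPLP2 (0.982), RPS2P5 (0.98) and TMBIM6 (0.977). For TAP2 they were TOMM22 (0.937), CDCA3 (0.923) and GPS1 (0.919), and for TAPBP PTPRS (0.957), SHB (0.935) and PCDHGC3 (0.933). For TAP1 the closest were MAP3K14 (0.963), PGAP2 (0.957) and ZDHHC5 (0.948). The closest to HLA-E, B2M, PSMB8 and PSMB9 were RP4-591C20.9 (0.919), SPRYD7 (0.908), WDFY2 (0.881) and C11ORF57 (0.876).

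Markers of the labelled cell type were present, since all 10 luminal breast markers had a mean of at least 1 TPM. They summed to 7300 to 14700 TPM over all libraries and to 7410 to 8510 TPM with DMSO, sums that a few of them could carry. In each comparison with DMSO 20% to 60% of them were called, beside 5.93% to 25.6% of all tested symbols. The calls went in both directions, with FOXA1 higher in 12 of 12 and KRT18 lower in 9. The 12 immune cell markers summed to 4.09 to 14.9 TPM over all libraries and to 7.56 to 9.22 TPM with DMSO. CD3D, which marks T cells, was listed at 0 in all 39 libraries and PTPRC, which marks leukocytes, in 30, while CD68 was above 0 in all 39 and reached 12.3 TPM. The 9 stromal and endothelial markers summed to 7.79 to 9.97 TPM with DMSO and to at most 24.0 TPM with ligand. The part of these markers in the differences of the class I genes was not tested.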

How the data were processed

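RNA sequencing covered 39 libraries in 13 groups of 3, by the labels. STAR, a read aligner, and the GRCh38 build are named per the submitters' processing notes. What counted the reads, and on which annotation, is a detail not given in the sources used here. TPM values per symbol were deposited by the authors for 46706 symbols and were used unchanged. The members and gene lists were chosen with earlier results of these data known.

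Values were taken as log2(TPM + 1). The 14404 symbols whose mean reached 1 TPM entered limma 3.58.1 in R 4.3.3, with 1 mean per group over all 39 libraries, an intensity trend and 26 residual degrees of freedom. Adjusted p-values are Benjamini-Hochberg over all tested symbols within each comparison, called below 0.05, and log2 differences understate the change of low genes. Intervals are 95%. There were 12 comparisons with DMSO, 12 between related ligands, 6 between doses, 2 interactions and 2 F tests. The script was tested on simulated data. All 9 members were named. From each other list, at most 5 genes were named, those with the largest mean absolute difference from DMSO among genes called at least once, plus NLRC5, IRF1, PSMB10, PSMB5, PSMB6 and PSMB7. Some genes that this rule covers are not reported here. The 3 symbols most like each member by Pearson's r were taken for the likeness. Alternatives were a pseudocount of 0.1, no expression filter (39392 symbols), median-of-ratios scaling (13583 symbols), only the libraries compared, no intensity trend and leaving out each library. Fits without the 3 libraries that stand apart and with the 10 most abundant symbols removed were added after seeing the data. Replicate numbers here are names in sample order, with no pairing given by the labels and none used.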

Additional observations from a re-analysis of the deposited data

How the results depend on the processing

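Among 14076 values of the 9 genes under single alternatives, 13944 kept their side of the threshold, 92 lost a call, 40 gained one and no called value reversed. Most of these values belong to tests not called in the main fit or leave out a library outside the comparison, so that total says little about the calls. Calls kept under every alternative were 6 of 11 for HLA-B, 6 of 11 for HLA-C, 3 of 6 for TAP2 and 0 of 6 for TAPBP. Calls against DMSO numbered 34, and 29 to 37 under other settings except when only the libraries compared entered the fit (27). Leaving out 1 library gave 21 to 39 in all, 17 to 33 higher and 4 to 7 lower, with 21 and 17 without DMSO replicate 2. The calls lower than DMSO were 6, and 10 after median-of-ratios scaling. Calls between related ligands were 0, and 0 to 4 without 1 library, with 4 without AZD-SAR 300 nM replicate 3. They were 1 without SAR439859 30 nM replicate 1, GDC-0810 300 nM replicate 3, AZD9496 300 nM replicate 1, AZD9496 300 nM replicate 3 or AZD-SAR 300 nM replicate 1, and 1 without the 3 libraries that stand apart. Dose, F and interaction tests called 0 members under every alternative run. No fit paired or blocked by listing order was run, because the labels carry no replicate numbers and give that order no meaning. How such a fit would change the calls was not tested. Depth is unknown, so counting error at low TPM (TAP2, PSMB8, NLRC5) was not tested.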
